A study of Homo sapiens with 6 samples.

Results

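The hairpins described here target the 4 subunits of the SAGA deubiquitinase module, USP22, ATXN7L3, ENY2 and ATXN7, and USP51, a second deubiquitinase that works with some of the same partners. They are 5 of 912 genes and 40 of 7293 hairpins that were seen in a pooled knockdown screen of chromatin regulators under azacitidine (AZA), a nucleoside drug that cells build into both RNA and DNA. The cells were SKK-1, an established line of human secondary acute myeloid leukemia that arose from a myelodysplastic syndrome. They carried the pool in a lentiviral vector with a puromycin resistance gene, and all 6 samples went through that selection. Cells were transduced in 3 cultures at low titre, each culture was divided, and one part stayed untreated while the other received 0.25 µM AZA every 2 days until genomic DNA was taken at day 14. The untreated and AZA groups held 3 libraries each, numbered by culture. A count is the number of sequenced guide strands, so that it follows the share of cells that carried a hairpin at harvest. The 5 genes were chosen by function and with their values in the AZA against untreated contrast already known, since 1 USP51 hairpin and the gene ATXN7L3 had stood out there. Their differences between the groups are therefore given as a description, with fold changes and errors but no p-value.

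Monoubiquitin on histone H2B is placed by the E3 ligase RNF20 and RNF40 and is linked to transcription elongation. The SAGA coactivator complex carries an enzyme module that takes it off again. USP22 is the catalytic subunit of that module, ATXN7L3 and ENY2 are adaptors without which the enzyme is inactive, and ATXN7 anchors the module to the rest of SAGA. USP51 and USP27X are further deubiquitinases that bind ATXN7L3 and ENY2 but not ATXN7, so that the 3 enzymes share their adaptors. ENY2 is in addition a subunit of TREX-2, a complex of mRNA export. On GRCh38 4 of the genes lie at chr17:20999596-21043760 (USP22, minus strand), chr17:44191805-44200113 (ATXN7L3, minus strand), chr3:63863155-64003462 (ATXN7, plus strand) and chrX:55484616-55489848 (USP51, minus strand).

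The 8 guides against ATXN7L3 are shown because this gene had the largest gene value of the 5. Each is the strand that pairs with the mRNA, written 5′ to 3′ as DNA, with the seed (bases 2 to 8) in capitals.
ATXN7L3.78: tTCATTTGtaaactcttgtgga
ATXN7L3.480: tTATCTTCttggtcactctcag
ATXN7L3.549: tTGTCTGActttctcttcttgg
ATXN7L3.588: tTTAATGActtggatcttcgag
ATXN7L3.1061: tCTTGTTGgaacctaggccgga
ATXN7L3.1068: tTCTTCTTcttgttggaaccta
ATXN7L3.1956: tTTCAAATaaagcagcaccgtt
ATXN7L3.2705: tTAAAAACcaatttgcaaccag
All 8 had exact complements in the representative (MANE) transcript of ATXN7L3 in GENCODE 44, and no seed occurred in more than 1 of them. Each guide matches only 3 (ATXN7L3.549) to 5 (ATXN7L3.480) of the 7 annotated protein-coding transcripts of the gene. ATXN7L3.78 covers the start of the coding sequence in exon 2 of 13 (chr17:44198066-44198087). ATXN7L3.480, ATXN7L3.549 and ATXN7L3.588 lie in the coding parts of exons 5 (chr17:44196976-44196997), 6 (chr17:44196397-44196418) and 7 (chr17:44196045-44196066). ATXN7L3.1061 (chr17:44194322-44194343) and ATXN7L3.1068 (chr17:44194315-44194336) lie in the coding part of the last exon, and their targets share 15 bases. ATXN7L3.1956 (chr17:44193427-44193448) and ATXN7L3.2705 (chr17:44192678-44192699) lie in the 3′ UTR. The target of ATXN7L3.1956 also occurs without a mismatch in the transcript of ATXN7L3B, which encodes a related ENY2-binding protein, and it was the only one of the 24 guides matched here with an exact complement in another gene.

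The 3 guides against ATXN7 whose AZA libraries all lay above the untreated ones are shown for comparison with those against ATXN7L3.
ATXN7.2830: tTGTAAGTtagaaacttctgac
ATXN7.3920: tTTTACATcaatttatagctaa
ATXN7.4294: tTAGTCTGaatcaacttgttat
Their targets are at chr3:64000110-64000131, chr3:64001200-64001221 and chr3:64001574-64001595. All 8 ATXN7 guides match the 3′ UTR in exon 13 of 13, 7 of them in 2 of the 7 annotated protein-coding transcripts and 1 in 3. Of the 8 ENY2 guides, 7 match the 3′ UTR and 1 the coding sequence, and 5 match only 1 of 3 protein-coding transcripts. Guide GC content was 31.8% to 54.5% for ATXN7L3 and 18.2% to 40.9% for both ENY2 and ATXN7. The guides against USP22 and USP51 are not used here. Hairpins of 1 gene share their target transcript, and how far each lowered its target was not measured in these data.

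The libraries held 12292575 to 19645459 counts without drug and 18542022 to 22587662 counts with AZA. The median hairpin of the pool stood at 97.8 to 99.98 CPM (counts relative to the library total) in the untreated and at 109.8 to 111 CPM in the AZA libraries. The 40 hairpins were all detected in every library, at 88 to 17512 counts, far above the 3 counts that a reading of 0 would allow (0.133 to 0.244 CPM). No sample of the starting pool was analysed here, so that a hairpin that is lower under AZA cannot be told apart from one that expanded without drug. Hairpin counts hold no markers of the cell line, and its identity was not checked.

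In each library the abundance of the 5 genes differed before any comparison between groups. The CPM of the 8 hairpins of a gene were summed and ranked among the 912 genes. Without drug, USP51 stood highest, with sums of 2485, 2407 and 2037 CPM in cultures 1, 2 and 3 and ranks of 15, 18 and 40. ATXN7 (1993, 2176 and 1652 CPM) and ENY2 (1943, 1993 and 1644 CPM) came next, and these neighbours overlapped. USP22 had 983, 1282 and 1072 CPM, and ATXN7L3 was lowest with 853, 833 and 741 CPM and ranks of 578, 574 and 691. With AZA the order was different. ATXN7 stood highest with 2595, 2470 and 2514 CPM and ranks of 8, 10 and 11. ATXN7L3 reached 1943, 2043 and 1777 CPM and ranks of 31, 23 and 51. ENY2 (1821, 1885 and 1719 CPM) and USP51 (1649, 1819 and 1639 CPM) overlapped with each other, and USP22 was lowest with 1411, 1145 and 994 CPM.

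**Figure D1:**
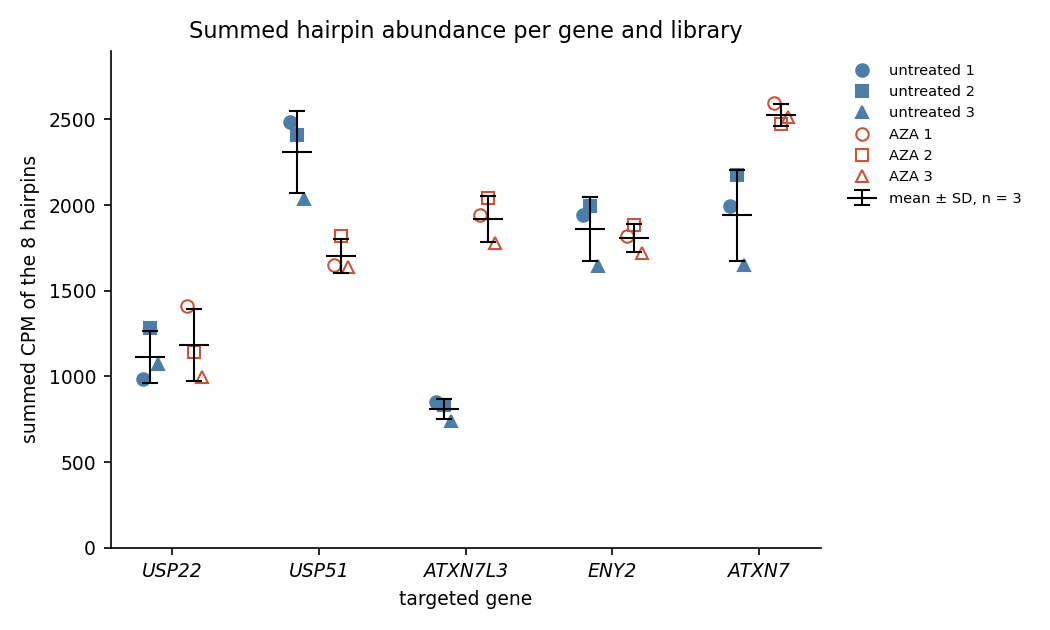
Summed CPM of the 8 hairpins of each gene (y axis, from 0) in each of 6 libraries, with filled symbols for untreated and open symbols for AZA libraries, the symbol shape giving the culture, and bars for mean ± SD (n = 3). The ATXN7L3 sums lie between 741 and 853 without drug and between 1777 and 2043 with AZA, and the USP51 sums all lie lower with AZA.

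USP22, the catalytic subunit, showed no common direction over its hairpins. Its sum was 1112 ± 153 CPM without drug and 1184 ± 211 CPM with AZA (mean ± SD, n = 3 each), a difference within the SD of either group. A gene value is the mean over hairpins of the fitted log2 fold change, AZA over untreated. For USP22 it was 0.11 ± 0.89 (SD over 8 hairpins), with 4 hairpins higher and 4 lower, and 0.20 when the culture number was a term of the fit. That term moved the median over all 912 genes from -0.052 to 0.21 and the share of genes above 0 from 44.6% to 67.7%, so that the latter USP22 value lies at the pool's median. Mean log2 differences of USP22 were 0.65, 0.087 and 0.46 in cultures 1, 2 and 3. USP22.4676 had 28.5, 102 and 4.48 CPM without drug and 169, 172 and 124 CPM with AZA (log2 fold change 1.60 ± 0.96 SE). Its groups did not overlap, but the untreated cultures ranged far more widely than the treated ones. USP22.2953 had 225, 231 and 370 CPM without drug and 246, 32.9 and 152 CPM with AZA (-1.11 ± 0.62). The low AZA value came from culture 2, and culture 1 differed by only 0.13 on the log2 scale. The other 6 USP22 hairpins had fold changes of -0.53 (USP22.1736) to 0.96 (USP22.2233), and their groups overlapped. The median SD of log2 CPM between cultures was 0.84 with AZA, the highest of the 5 genes, and 0.73 without drug.

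ATXN7L3, the adaptor that activates USP22, USP51 and USP27X, had 7 of 8 hairpins higher under AZA. The 8 fold changes ran from -0.42 (ATXN7L3.1061) to 2.14 (ATXN7L3.2705). The sum was 809 ± 59.5 CPM without drug and 1921 ± 135 CPM with AZA (n = 3 each), a ratio of 2.37. The gene value was 1.08 ± 0.75 over 8 hairpins and 1.39 with the culture number in the fit, and cultures 1, 2 and 3 gave mean log2 differences of 1.21, 1.78 and 1.67. Of the 912 genes, 14 had a higher value (38 with the culture number in the fit), and gene values had an SD of 0.39 (0.54). The median ATXN7L3 hairpin stood at percentiles 37.1, 38.3 and 40.1 of the untreated libraries and at 80.4, 85.1 and 86.4 of the AZA libraries. Between 2 and 3 of the 8 hairpins lay above the median hairpin of their library without drug, and 7 of 8 did so in every AZA library.

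Among single hairpins, ATXN7L3.2705 in the 3′ UTR had the largest difference, from 75.6, 60.3 and 8.70 CPM without drug to 203, 234 and 274 CPM with AZA (log2 fold change 2.14 ± 0.75 SE). ATXN7L3.1956, which also matches ATXN7L3B, had 63.9, 75.5 and 42.5 CPM without drug and 132, 244 and 225 CPM with AZA (1.56 ± 0.61). Both had all AZA libraries above all untreated ones, and ATXN7L3.2705 was scarce in untreated culture 3. ATXN7L3.480 in exon 5 had 36.8, 49.8 and 149.6 CPM without drug and 199.6, 232 and 261 CPM with AZA (1.39 ± 0.63). ATXN7L3.549 in exon 6 had 122, 85.4 and 142 CPM without drug and 321, 310.2 and 281 CPM with AZA (1.22 ± 0.42), the smallest SE of the 8. These too did not overlap between groups, which makes 4 such hairpins, in coding sequence and in the 3′ UTR.

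The other 4 ATXN7L3 hairpins overlapped between groups. ATXN7L3.1068 had 299, 33.3 and 55.0 CPM without drug and 467, 215 and 256 CPM with AZA (1.14 ± 0.72), and was higher in each culture. ATXN7L3.588 had 149.9, 378 and 98.5 CPM without drug and 402, 513 and 222 CPM with AZA (0.68 ± 0.52), again higher in each culture. ATXN7L3.78, at the start of the coding sequence, had 44.5, 11.9 and 216 CPM without drug but nearly equal values of 180.3, 201 and 198 CPM with AZA (0.93 ± 0.85). Culture 3 was the exception there, at -0.12 on the log2 scale. ATXN7L3.1061 was the hairpin without a higher mean, with 61.0, 139 and 29.6 CPM without drug and 39.2, 94.3 and 60.3 CPM with AZA (-0.42 ± 0.88). Without untreated replicate 2 this turned to 0.37, so that 8 of 8 were then higher. Its target shares 15 bases with that of ATXN7L3.1068, yet cultures 1, 2 and 3 gave log2 differences of -0.63, -0.56 and 1.01 for ATXN7L3.1061 and of 0.64, 2.67 and 2.21 for ATXN7L3.1068. The seeds printed above differ between them.

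**Figure D2:**
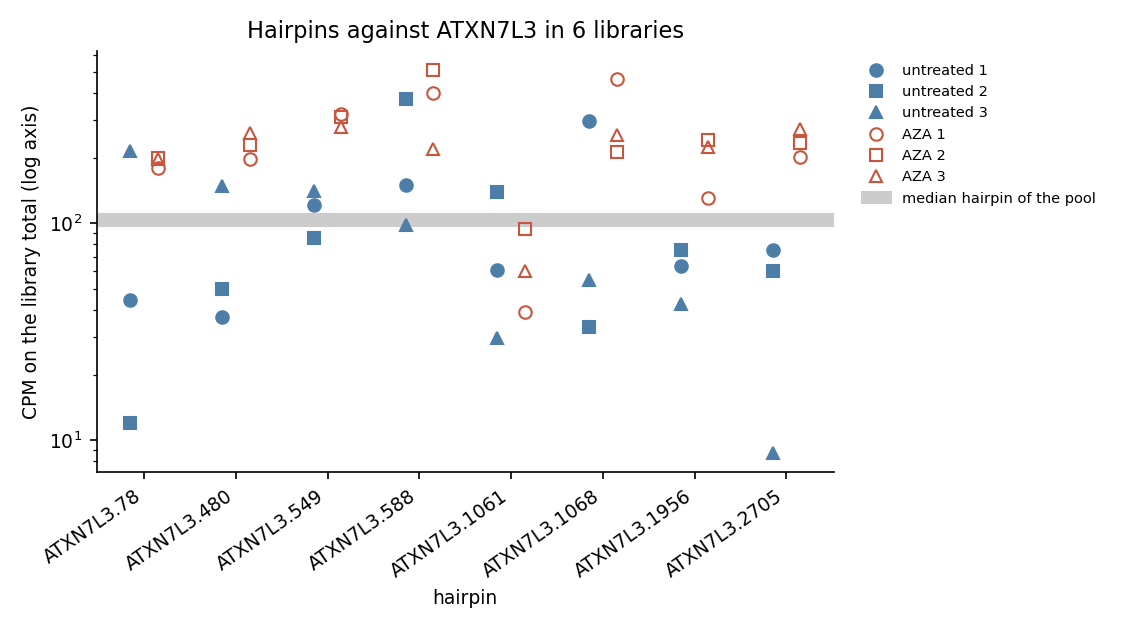
CPM (log axis) of the 8 ATXN7L3 hairpins (x axis, in order of position) in 6 libraries, with filled symbols for untreated and open symbols for AZA, the shape giving the culture and the grey band the median hairpin of the 6 libraries (97.8 to 111 CPM). In 7 hairpins the AZA symbols all lie above the band, and in ATXN7L3.1061 all lie below it.

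ENY2, the adaptor shared with TREX-2 (chr8:109334324-109345954 on GRCh38, plus strand), had the narrowest range of fold changes among the 5 genes. Its sums were 1860 ± 189 CPM without drug and 1809 ± 83.8 CPM with AZA (n = 3 each). The gene value was -0.19 ± 0.28 over 8 hairpins, or -0.028 when counts were scaled to library totals. With the culture number in the fit it was -0.21, below the pool's median of 0.21 in that fit. None of its 8 hairpins separated the groups, and the fold changes ran from -0.56 (ENY2.2552) to 0.36 (ENY2.1657). ENY2.2552 had 217, 171 and 118 CPM without drug and 101, 149 and 134 CPM with AZA (-0.56 ± 0.52 SE). ENY2.530 had 422, 363 and 314 CPM without drug and 292, 449 and 183 CPM with AZA (-0.41 ± 0.38). In both, the 2 groups covered much of the same range. ENY2 hairpins were also abundant, with 7 or 8 of 8 above the median hairpin in every library, and none fell below 0.25 times that median. The targets of ENY2.2696 and ENY2.2698 share 20 bases, and the log2 differences of cultures 1, 2 and 3 were 1.36, -1.98 and -0.041 for the former and -0.69, 0.16 and -0.019 for the latter. ENY2.2696 thus varied widely between cultures, and ENY2.2698 did not.

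ATXN7, the anchor of the module, had a higher sum in each AZA library, 2526 ± 63.6 CPM against 1941 ± 266 CPM without drug (n = 3 each, ratio 1.30), but its hairpins were divided. The gene value was 0.27 ± 0.69 over 8 hairpins, with 4 hairpins higher and 4 lower. It was 0.42 with the culture number in the fit, beside the pool's 0.21, and 0.43 on library totals, with 5 hairpins higher in each. Mean log2 differences of ATXN7 were 0.28, 0.37 and 1.14 in cultures 1, 2 and 3. ATXN7.2830 had 157, 97.9 and 23.0 CPM without drug and 257, 241 and 251 CPM with AZA (log2 fold change 1.28 ± 0.64 SE). ATXN7.4294 had 163, 109 and 103 CPM without drug and 358, 237 and 351 CPM with AZA (1.18 ± 0.42). ATXN7.3920 had 325, 402 and 412 CPM without drug and 542, 545 and 567 CPM with AZA (0.37 ± 0.27). These are the 3 whose guides are printed above, and in each the groups did not overlap. The other 5 overlapped, from ATXN7.3536 (-0.44 ± 0.38) to ATXN7.4484 (0.59 ± 0.40), which was also higher in each culture.

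USP51, the deubiquitinase outside SAGA, had a lower summed abundance with AZA, and in summed CPM nearly all of that difference lay in 1 hairpin. USP51.2319 had 753, 971 and 764 CPM without drug and 305.0, 225 and 213 CPM with AZA, a log2 fold change of -1.91 ± 0.28 (SE). It was among the most abundant hairpins of the pool without drug, at percentiles 99.5, 99.7 and 99.6, and stood at 93.3, 83.9 and 82.1 with AZA. The log2 differences in cultures 1, 2 and 3 were -1.30, -2.11 and -1.84. It was the only one of the 40 hairpins below an adjusted p of 0.05 in the edgeR fit, as 0.0551% of the 7262 tested hairpins were in the lower direction and 0.0138% in the higher one, in which no hairpin of the 5 genes was called. Since the hairpin was known from this contrast, nothing is read from the count. It kept the call in 4 of 12 other fits and lost it with library totals, with the culture number in the fit and with any 1 of the 6 libraries left out, while the fold change stayed between -2.09 and -1.74.

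The remaining 7 USP51 hairpins were close to balance in their sum, though 5 of them had a fold change below 0. Together they had 1733, 1436 and 1273 CPM without drug and 1344, 1594 and 1425 CPM with AZA, means of 1480 ± 233 and 1455 ± 127 CPM (n = 3 each) and a ratio of 0.98. USP51.2319 made up 35.9% of the gene's CPM without drug and 14.6% with AZA. The gene value was -0.42 ± 0.71 over 8 hairpins, -0.21 without USP51.2319 and -0.22 with the culture number in the fit, and 94 of 912 genes had a lower value (126 with the culture number in the fit). The USP51 cultures did not share a direction in mean log2 differences, with -0.47, 0.16 and 0.23 in cultures 1, 2 and 3. The summed CPM of USP51 was lower with AZA in each culture. The means of cultures 2 and 3 include differences of 3.405 (USP51.1727) and 2.82 (USP51.2169), from untreated readings of 5.16 and 14.8 CPM. These differences are on library totals, where the gene value was -0.26. USP51.3927 was the other hairpin with all AZA libraries below the untreated ones, at 299, 280.4 and 309 CPM without drug and 241, 119 and 155 CPM with AZA (-0.95 ± 0.41 SE). Its untreated cultures were nearly equal, and its AZA cultures were not.

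For the other 6 USP51 hairpins the groups overlapped. USP51.4271 had 363, 142 and 316 CPM without drug and 355, 439 and 388 CPM with AZA (0.37 ± 0.38), and USP51.2915 had 338, 443 and 295 CPM and 217, 471 and 319 CPM (-0.26 ± 0.37). USP51.943 had 126, 227 and 74.8 CPM without drug and 118, 203 and 192 CPM with AZA (0.088 ± 0.57), and USP51.1024 had 194, 206 and 101 CPM and 165, 194 and 144 CPM (-0.16 ± 0.50). In these 4 the fold change was no larger than its SE. USP51.2169 had 369, 133 and 14.8 CPM without drug and 216, 109.5 and 108 CPM with AZA (-0.40 ± 0.85), and USP51.1727 had 43.2, 5.16 and 162 CPM and 33.3, 59.4 and 120.3 CPM (-0.14 ± 1.10). In both of them 1 untreated culture was very low, and with the culture number in the fit their fold changes became 0.33 and 0.57.

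**Figure D3:**
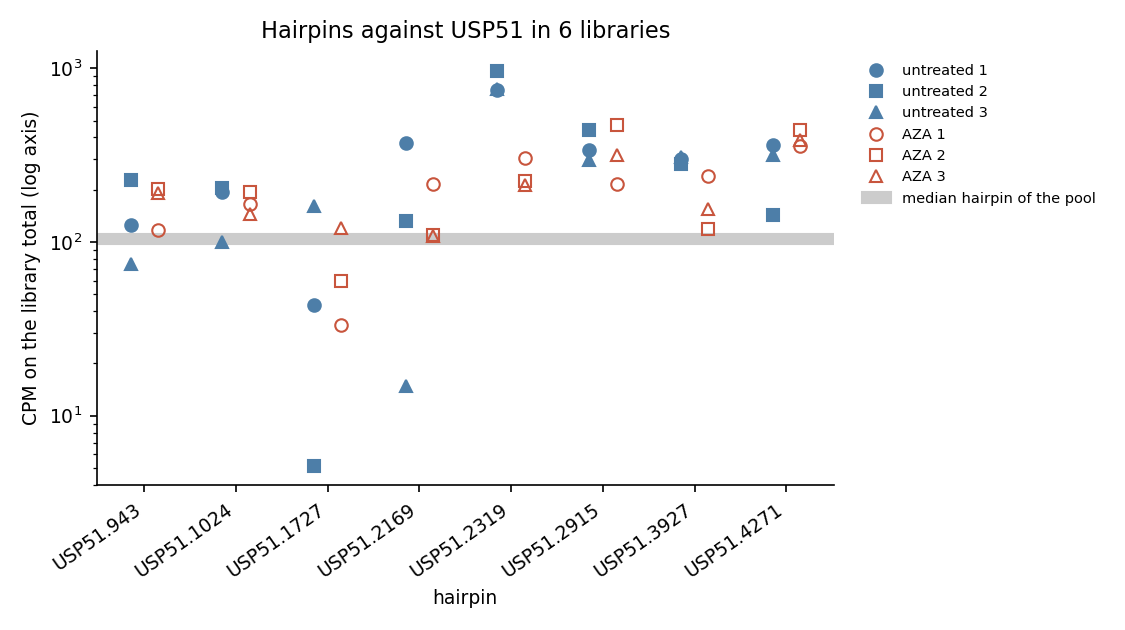
CPM (log axis) of the 8 USP51 hairpins (x axis, in order of position) in 6 libraries, drawn as for ATXN7L3. USP51.2319 stands above the other hairpins in the untreated libraries (753 to 971 CPM) and among them with AZA (213 to 305.0 CPM).

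Over the 40 hairpins, 19 had a higher and 21 a lower fitted value under AZA. The AZA libraries lay all above the untreated ones for 8 hairpins (4 of ATXN7L3, 3 of ATXN7 and 1 of USP22), against 9.17% of all tested hairpins. They lay all below for 2 hairpins, both of USP51, against 4.31%, and 30 overlapped. The genes were chosen by values from this contrast, so that nothing is read from these shares. All 3 cultures were higher for 12 hairpins, 6 of them against ATXN7L3 and 4 against ATXN7, and all 3 lower for the 2 USP51 hairpins. These are 30% and 5% of the 40, against 18.98% and 10.74% of all tested hairpins. The median fold change of all tested hairpins was -0.096, or 0.067 on library totals and 0.080 with the culture number in the fit, and a value near these is a value near the pool.

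**Figure D4:**
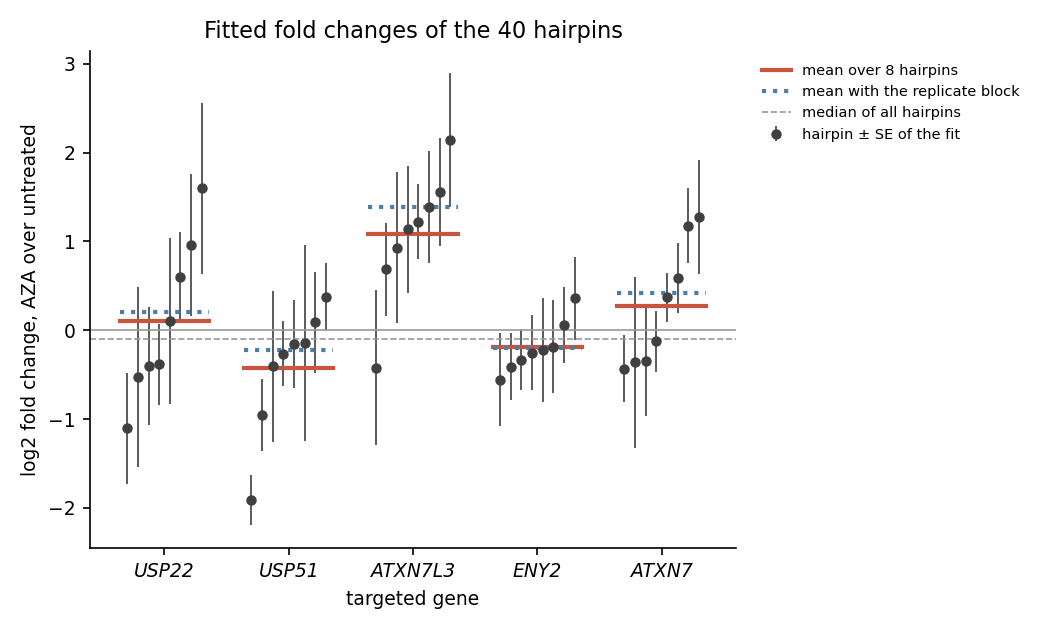
Fitted log2 fold change, AZA over untreated, of the 40 hairpins (points, sorted within each gene, bars ± SE), with the gene mean (solid line), the gene mean with the culture number in the fit (dotted) and the median of all hairpins (dashed, -0.096). USP51.2319 (-1.91) lies apart from the other USP51 hairpins, whereas 7 of 8 ATXN7L3 hairpins lie above 0.

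The wider spread between untreated cultures was a trait of the whole pool and was weaker in these hairpins. Across the pool, the SD of log2 CPM over 3 cultures had a median of 0.93 without drug and 0.56 with AZA, and 72.8% of hairpins were wider without drug. In the 5 genes the medians were 0.60 and 0.47, and 26 of 40 hairpins (65%) were wider without drug. ATXN7L3 showed this most, with medians of 1.08 and 0.35 and 7 of 8 hairpins wider without drug, followed by ATXN7 (0.51 and 0.33, also 7 of 8). USP51 (0.65 and 0.47) had 5 of 8 wider without drug, ENY2 (0.41 and 0.47) had 4 and USP22 had 3. In 7 of the 40 hairpins (17.5%) the highest untreated culture exceeded the lowest by over 10-fold, and in none with AZA, against 23.1% and 4.88% of all hairpins. Hairpins below 0.25 times their library's median numbered 0, 3 and 6 of 40 in untreated cultures 1, 2 and 3 and 0, 0 and 1 with AZA. These counts lie below the pool's shares of 14.3%, 17.9% and 16.2% without drug and 6.80%, 8.27% and 7.76% with AZA. In untreated culture 3 the count is only slightly below the pool's share. Without untreated culture 3, which held most of the scarce ones, the gene value was 1.20 for ATXN7L3 (1.08 with all libraries) and 0.15 for ATXN7 (0.27 with all libraries), and without untreated culture 1 it was 1.20 and 0.42. The part of scarce hairpins in these values was not tested.

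**Figure D5:**
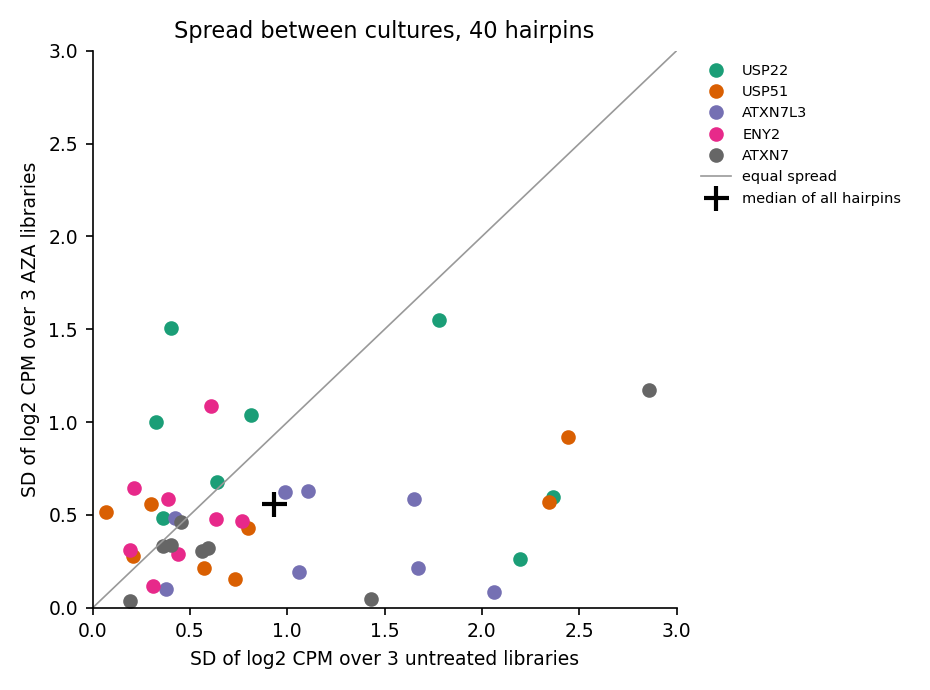
SD of log2 CPM over the 3 untreated cultures (x axis) and over the 3 AZA cultures (y axis) for the 40 hairpins, coloured by gene, with a line of equal spread and a cross at the median of all hairpins (0.93 and 0.56). Points below the line, 26 of 40, varied more between untreated cultures.

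Other genes of the pathway were described in the same way from lists. Of 12 writers of H2B ubiquitin, 6 were in the pool with 47 tested hairpins. None was called, beside 0.0551% of all tested hairpins called lower and 0.0138% called higher. At such shares nothing is read from the absence of calls, here or in the next lists. The median gene value was -0.21, with 2 of 6 genes above 0. With the culture number in the fit the median was 0.16, with 5 of 6 above 0, beside the pool's 0.21. RNF20, the E3 ligase, had -0.81 ± 0.58 (SD over 7 hairpins), and UBE2E1, a ubiquitin-conjugating enzyme, had 0.45 ± 0.98 (8 hairpins), or -0.61 and 0.89 with the culture number in the fit. Of 16 other deubiquitinases of H2A or H2B and their partners, 10 were in the pool with 80 hairpins, none was called, and the median gene value was -0.14, with 4 of 10 above 0 (0.062 and 5 of 10 with the culture number in the fit). The largest were USP21 at 0.83 ± 1.64 (1.495 with the culture number in the fit) and USP7, which also stabilizes the p53 regulator MDM2, at 0.67 ± 1.22 (1.70). USP27X, the remaining enzyme that uses ATXN7L3 and ENY2, was named after its values were seen and had -0.16 ± 0.43, with 3 hairpins higher and 5 lower. Of 20 other SAGA subunits, 14 were in the pool with 111 hairpins, none was called, and the median gene value was 0.091, with 8 of 14 above 0. With the culture number in the fit these became 0.53 and 12 of 14. The median of this list lay above the pool's in both fits (-0.052 without and 0.21 with the culture number). Its size, but not its direction, depended on the pairing, and the pool's median rose as well. TAF12, a histone-fold subunit, had -0.34 ± 0.51 and SUPT7L, a core subunit, 0.34 ± 0.95, the largest of that list without the culture number (-0.16 and 0.53 with it). None of the 5 TREX-2 genes listed was in the pool.

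The genes whose mean log2 CPM over hairpins followed each of the 5 most closely over the 6 libraries were read out as a description. The 6 libraries came from 3 cultures and share depth and treatment, and the best of so many genes is high by construction. For ATXN7L3, KDM3B, a histone demethylase, was among them (Pearson r = 0.990). For ATXN7 they were MLH3, a mismatch repair factor (0.998), and CDC6, a replication licensing factor (0.989), and for USP22 PAX9, a transcription factor (0.990), and HMG20B, of the LSD1 complex (0.967). For ENY2 they were ESCO2, a cohesin acetyltransferase (0.926), and UBE2N, a ubiquitin-conjugating enzyme (0.916), and for USP51 CXXC5 (0.946) and ZKSCAN2 (0.917), both zinc-finger proteins. Among the 5 genes themselves r ran from -0.16 (ATXN7L3 and ENY2) to 0.83 (USP22 and ATXN7), and it was 0.76 for ATXN7L3 and ATXN7, 0.55 for ATXN7L3 and USP22 and 0.090 for ATXN7L3 and USP51.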

How the data were processed

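Guide strands of the hairpins were amplified by PCR from genomic DNA of 6 samples and sequenced. The authors deposited raw counts per hairpin, 1 file per sample. The processing notes of the submitters name CASAVA 1.9 and GRCh37, with the tool for assigning reads not given in the sources used here. Hairpins absent from a file were taken as 0. Deposited counts carry no molecular identifiers, so that floors cover counting error only.

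Groups and numbers came from the sample titles. Members and lists were chosen with earlier results of these data known. Described in full were all hairpins of ATXN7L3 and USP51, the 2 per other gene with the largest absolute fold change, the 2 genes per list with the largest absolute gene value and the 2 most alike genes per member. No gene on the Y chromosome was named. Of the most alike genes, 1 is not reported here.

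Counts were fitted with edgeR 4.0.16 (limma 3.58.1, R 4.3.3): TMM, CPM above 0.5 in at least 3 libraries (7262 of 7293 hairpins, all 40 members), quasi-likelihood test on treatment, Benjamini-Hochberg over all hairpins, threshold 0.05. Culture differences used log2(CPM + 0.5). The fit was run on simulated counts with known changes, and a share of changes to be found was required only at the lower noise setting. Whether that setting matches the noise of these libraries was not tested. Guides (24 of 40) came from the library list of the study and were matched to GENCODE 44 transcripts on GRCh38.

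Each culture was divided into both groups, so that numbers pair the samples. The main fit has no term for the number, and fold changes and SE are from it unless stated. With the number as a block, 3 of the 40 hairpins changed sign. USP22.4676 moved from 1.60 to 2.52 and ATXN7L3.78 from 0.93 to 1.83, while USP51.2319 moved only from -1.91 to -1.92. Deviations from group means correlated at 0.115 to 0.140 between libraries of one number and at -0.098 to -0.023 otherwise (across hairpins). Alternatives were DESeq2 1.42.0 size factors and Wald test, library totals, no filter, CPM above 10, the number as a block, leaving out each library, the median over hairpins, leaving out the strongest hairpin and a pseudocount of 5 CPM.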

Additional observations from a re-analysis of the deposited data

How the results depend on the processing

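Of the hairpins described in full, 5 with small fold changes took the other sign in some of the fits: ATXN7L3.1061 (0.37 without untreated replicate 2), USP51.1024 (up to 0.043), USP51.1727 (up to 1.42), USP51.2169 (up to 0.78) and USP51.943 (down to -0.22). The lower call of USP51.2319 was lost with library totals (0 hairpins of the 5 genes called lower), with the replicate block (0 called) and with each library left out (0 to 0 called), and was kept under DESeq2 size factors, no filter, CPM above 10 and the DESeq2 Wald test. DESeq2 called 76 hairpins of the pool lower and 59 higher. The value of ATXN7L3 was 1.39 with the replicate block and 0.99 to 1.20 with a library left out. That of ENY2 was -0.028 with library totals, which moved the median of all hairpins by 0.16. USP22 lay at 0.11 but at -0.14 as a median over hairpins, at -0.11 without USP22.4676 and at -0.090 (without AZA replicate 1) to 0.38 (without untreated replicate 2) with a library left out, and ATXN7 and USP51 shrank to 0.12 and -0.21 without their strongest hairpin. ATXN7 lay at 0.15 without untreated replicate 3 and at 0.42 without untreated replicate 1. USP51 had 2 hairpins higher, and 4 with the block or on library totals. Among the hairpins described in full, those that moved most with 1 library left out were ATXN7L3.78 (0.93, 0.41 to 2.63), USP51.1727 (-0.14, -0.76 to 1.42), ATXN7L3.1068 (1.14, 0.69 to 2.65) and USP22.4676 (1.60, 1.06 to 3.10). Next came USP51.2169 (-0.40, -0.95 to 0.78), ATXN7L3.480 (1.39, 1.04 to 2.25), ATXN7L3.1061 (-0.42, -0.81 to 0.37), ATXN7L3.588 (0.68, 0.34 to 1.47) and USP22.2953 (-1.11, -1.74 to -0.64). Each group had 3 libraries, and where calls were lost the cause was not tested.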
